A study of Mus musculus with 4 samples.

Results

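The BCL2 family of cell death regulators was followed in c-Kit-positive bone marrow cells carrying Mll and Runx1 lesions, with and without Hif1a. The 10 genes were chosen from the family by symbol and role, with earlier results of these data known. They were the pro-survival genes Bcl2, Bcl2l1, Mcl1 and Bcl2a1b, the effectors Bax and Bak1, and the BH3-only genes Bid, Bbc3, Pmaip1 and Bcl2l11. All 10 had a row among the 28987 genes of the table. RNA sequencing gave 1 TPM value per gene and library, a relative abundance scaled by transcript length. TPM keeps no record of read depth, so the depth behind each value is unknown.

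The libraries came from C57BL/6 mice whose c-Kit-positive (CD117) marrow cells, a fraction rich in haematopoietic stem and progenitor cells, had been enriched on magnetic beads. All 4 libraries shared 1 MllPTD allele, a partial tandem duplication within Mll (Kmt2a), over a wild-type allele, together with Runx1Flox/Flox and Mx1-Cre. Mx1-Cre is a recombinase under an interferon-inducible promoter and is not limited to blood cells. The 2 Hif1a-intact libraries (the intact pair) had no further allele, and the 2 Hif1a-null libraries (the null pair) were also Hif-1alpha Flox/Flox. The labels give no ages and do not say whether each library is a separate mouse, so p-values reflect only how far these libraries spread, and that spread may be technical. The comparison asks how loss of Hif1a goes with transcript levels in these progenitors. Hif1a itself read 100.3 and 75.2 TPM in the intact pair and 98.8 and 113.5 TPM in the libraries labelled Hif1a-null, so the gene-level values do not check the deletion and directions rest on the labels. Runx1, floxed in both groups, read 73.6 and 76.6 against 48.4 and 46.7 TPM (limma, adjusted p = 0.0636).

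The family controls the mitochondrial route to apoptosis. Pro-survival proteins hold the effectors BAX and BAK in check, BH3-only proteins bind the pro-survival proteins or activate the effectors, and active effectors open the outer mitochondrial membrane so that cytochrome c escapes and caspases are switched on. Blood progenitors are known to rely on MCL-1, erythroid cells on BCL-XL (from Bcl2l1) and lymphoid cells on BCL-2, and Bim (from Bcl2l11), Puma (from Bbc3) and Noxa (from Pmaip1) set death after cytokine loss or DNA damage.

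The members are tied together by the BH3 motif, the stretch through which they bind each other. Its core is a leucine, 3 further residues, a glycine and an aspartate. The coding stretch of 27 bases from that leucine is shown for the members in which it was found, from GENCODE vM21 transcripts (GRCm38), with the leucine codon and the glycine and aspartate codons in capitals.
Bcl2 at chr1:106712575-106712601, minus strand: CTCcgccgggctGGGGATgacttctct
Bcl2l1 at chr2:152829697-152829723, minus strand: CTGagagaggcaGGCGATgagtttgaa
Mcl1 at chr3:95659436-95659462, plus strand: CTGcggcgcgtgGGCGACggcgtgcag
Bax at chr7:45465997-45466023, minus strand: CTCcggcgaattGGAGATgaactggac
Bak1 at chr17:27022531-27022557, minus strand: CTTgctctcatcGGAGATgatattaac
Bid at chr6:120897289-120897315, minus strand: CTCgcccaaataGGCGATgagatggac
Bbc3 at chr7:16313773-16313799, plus strand: CTGcggcggatgGCGGACgacctcaac
Bcl2l11 at chr2:128147150-128147176, plus strand: CTGcggcggatcGGAGACgagttcaac
In Bbc3 the second block of capitals starts with an alanine codon in place of glycine. The core with glycine is encoded by 2830 of 21522 protein-coding genes (13.1%). Allowing alanine as well, as for Bbc3, gives 5080 genes (23.6%). Bcl2a1b has no match to either form, so the core alone does not mark the family. Each stretch shown lies in 1 exon. Pmaip1 is named only: its stretch is not reported here, which does not mean that the core is missing.

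Bcl2a1b is the mouse copy of A1, a pro-survival gene of myeloid and lymphoid cells, and has near-identical neighbours. Over 516 coding bases Bcl2a1b and Bcl2a1d are 98.8% identical, and Bcl2a1a and Bcl2a1b 97.9%. The first 60 coding bases, where the 3 copies differ most, show how little separates them, with the differing positions in capitals.
Bcl2a1a: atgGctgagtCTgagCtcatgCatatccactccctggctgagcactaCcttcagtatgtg
Bcl2a1b: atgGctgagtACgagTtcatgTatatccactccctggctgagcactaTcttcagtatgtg
Bcl2a1d: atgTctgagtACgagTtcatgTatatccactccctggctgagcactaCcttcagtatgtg
Bcl2a1a and Bcl2a1d were not matched to a row of the table and are not analysed here. Bcl2a1b (ENSMUSG00000089929, chromosome 9, 89199209 to 89207827) read 0.966 TPM in Hif1a-null replicate 2 and was listed at 0 in the other 3 libraries. It was below the filter for testing, and its listing at 0 cannot be read as absence of A1 transcript, since reads of the copies cannot be told apart over most of their length.

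Levels in the Hif1a-intact group spanned from Mcl1 at 164.7 TPM, above 93.8% of tested genes, to Bbc3 at 3.60 TPM, above 20.6%. The order by mean TPM was Mcl1, Bid, Bak1, Bcl2l11, Bax, Bcl2, Pmaip1, Bcl2l1 and Bbc3, with Bcl2a1b last. Neighbours in that order had separate ranges except Bax and Bcl2, and Bcl2 and Pmaip1. In the Hif1a-null group the order was the same down to Bax. Bcl2l1 then stood sixth at 10.9 TPM and Bcl2 eighth at 4.32 TPM, with Pmaip1 between them at 4.41 TPM and overlapping Bcl2.

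**Figure D1:**
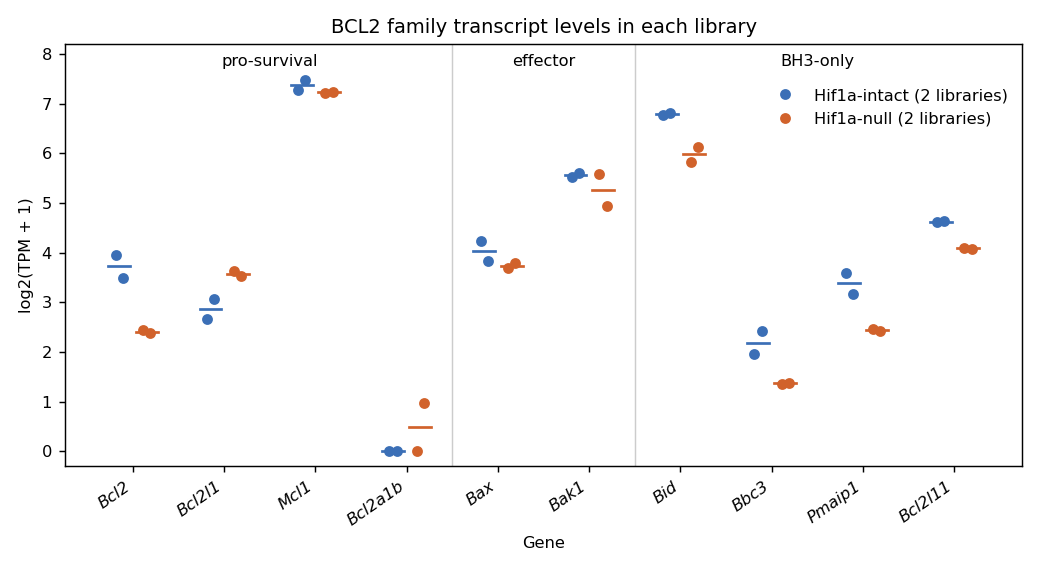
Transcript level of each of the 10 genes as log2(TPM + 1), with 1 point per library and a bar at the group mean (2 Hif1a-intact and 2 Hif1a-null libraries). Bcl2, Mcl1, Bax and all 4 BH3-only genes lie lower in both Hif1a-null libraries than in both Hif1a-intact libraries, beside 32.3% of all tested genes. Bcl2l1 lies higher, beside 22.7%, and Bak1 overlaps.

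Bcl2 was lower in the Hif1a-null libraries and was the single member past the threshold. Of the 9 members tested, 1 was called lower and 0 higher by limma at an adjusted p under 0.05, beside 2.02% of 11909 tested genes called lower, 5.25% called higher and 7.27% either way. At an unadjusted p under 0.05 the members counted 5 lower and 1 higher, beside 11.9% of all tested genes lower and 11.4% higher. The groups did not overlap for 8 of the 9, with 7 lower and 1 higher in the Hif1a-null libraries, where 32.3% of all tested genes were lower, 22.7% higher and 55.0% either way without overlap. The log2 fold change was below 0 for 8 of the 9, beside 57.5% of all tested genes. All 9 were at 1 TPM or more in every library, so no direction was fixed by the filter. The median log2 fold change of the 9 was -0.54, beside -0.06 over all tested genes. Since the members were chosen with earlier results of these data known, these counts describe the members and are no test of the family. In bulk RNA such as this, fewer cells of a type and less RNA per cell cannot be told apart.

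Among pro-survival genes, Bcl2, the founding member of the family (ENSMUSG00000057329, chromosome 1, 106538178 to 106714274, minus strand), read 14.5 and 10.2 TPM in the intact pair and 4.41 and 4.22 TPM in the null pair. Both Hif1a-null libraries lay well below both others and close to each other. The group means were 12.4 ± 2.995 and 4.32 ± 0.135 TPM (SD, n = 2 each), and Bcl2 fell by 1.31 on the log2(TPM + 1) scale, with a standard error of 0.20 and a 95% interval from -1.86 to -0.76 (limma, adjusted p = 0.0394). Its fold change was lower than that of all but 1.44% of tested genes. Of its 15 alternatives, summing members with near-identical copies could not change Bcl2, for which no such copy was found. The call held in 10 of 15 alternatives and was lost with a pseudocount of 0.1 (adjusted p = 0.0508) or 5 (adjusted p = 0.06), with no filter on low values (adjusted p = 0.0847), and without Hif1a-null replicate 1 (adjusted p = 0.31) or replicate 2 (adjusted p = 0.382).

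Bcl2l1, which encodes BCL-XL and, by alternative splicing, the shorter pro-death BCL-XS, stood the other way. It read 5.35 and 7.42 TPM in the intact pair and 11.4 and 10.5 TPM in the null pair (ENSMUSG00000007659, chromosome 2, 152780668 to 152831728, minus strand). The groups did not overlap, but the log2 fold change of 0.70 (95% interval 0.19 to 1.22) did not pass (limma, adjusted p = 0.128), nor under any of its 15 alternatives (adjusted p from 0.0587 to 0.699). Gene-level TPM does not separate the 2 splice forms. The ratio of Bcl2 to Bcl2l1 was 2.70 and 1.38 in the intact pair and 0.388 and 0.404 in the Hif1a-null libraries, so Bcl2 was the more abundant transcript in each Hif1a-intact library and Bcl2l1 in each Hif1a-null library. The ratio was chosen after the values of both genes were seen, and an exact two-sided permutation test of 2 against 2 cannot go below p = 0.333.

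Mcl1, which encodes the short-lived survival factor MCL-1, was the most abundant member in both groups. It read 153.4 and 176.1 TPM against 148.2 and 150.5 TPM (ENSMUSG00000038612, chromosome 3, 95658788 to 95663176, plus strand). Its log2 fold change was -0.14, with a 95% interval from -0.52 to 0.24 (limma, adjusted p = 0.627). Mcl1 made up 88.5% to 90.9% of the summed TPM of the 4 pro-survival genes in every library. That sum was 173.2 and 193.7 TPM in the intact pair and 164 and 166.1 TPM in the null pair.

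The effectors were not shown to differ. Bax, whose product inserts into the outer membrane on activation, read 17.9 and 13.3 TPM in the intact pair and 11.8 and 12.9 TPM in the null pair (ENSMUSG00000003873, chromosome 7, 45461697 to 45466898, minus strand). Its highest Hif1a-null library lay just under its lowest Hif1a-intact library, and the log2 fold change was -0.30 with an interval from -0.815 to 0.215 (limma, adjusted p = 0.434). Bax overlaps 915 bases of Gm45808, a protein-coding gene on the same strand that had no row. Bak1, the effector that sits in the mitochondrial membrane at rest, read 45.2 and 47.4 TPM in the intact pair (ENSMUSG00000057789, chromosome 17, 27019810 to 27029009, minus strand). The Hif1a-null libraries read 46.8 and 29.6 TPM, so they differed more from each other than the groups did. The log2 fold change of Bak1 was -0.31 (limma, adjusted p = 0.546), and without Hif1a-null replicate 2 it was 0.01. Bak1 lies wholly within Ggnbp1 on the other strand, which read 1.13 to 2.24 TPM. How strand was handled in the quantification is not stated.

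All 4 BH3-only members read lower in both Hif1a-null libraries than in either Hif1a-intact library, beside 32.3% of all tested genes, and none passed. limma called 0 of 4, beside 2.02% of all tested genes called lower. All 4 had an unadjusted p under 0.05, beside 11.9% of all tested genes lower and 23.2% in either direction. Bid, which links death receptors to mitochondria once caspase-8 has cut it, was the most abundant, at 108.1 and 111.5 TPM in the intact pair and 56 and 68.5 TPM in the null pair. Its log2 fold change was -0.81, with an interval from -1.24 to -0.39 (limma, adjusted p = 0.0641; 0.0463 when protein-coding genes alone were tested). Over its 15 alternatives the adjusted p ran up to 0.6, without Hif1a-null replicate 1. Bid (ENSMUSG00000004446, chromosome 6, 120891930 to 120916853, minus strand) shares 913 bases at its 3' end with Bcl2l13 on the plus strand, which read 9.45 to 12.9 TPM.

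Pmaip1, which encodes the MCL-1 binding protein Noxa (ENSMUSG00000024521, chromosome 18, 66458533 to 66465565), read 11.1 and 8.01 TPM in the intact pair and 4.49 and 4.33 TPM in the null pair. Both Hif1a-null values were near each other and below the lower Hif1a-intact value. Its log2 fold change was -0.95, with an interval from -1.46 to -0.43 (limma, adjusted p = 0.07). It passed after quantile normalization (limma, adjusted p = 0.0459) and not with no filter on low values (limma, adjusted p = 0.117). Without Hif1a-intact replicate 2, where the spread came from the Hif1a-null pair alone, the log2 fold change was -1.16. It was -0.924 without Hif1a-null replicate 2.

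Bbc3, which encodes Puma, a p53-induced killer that binds all pro-survival proteins, was the lowest tested member (ENSMUSG00000002083, chromosome 7, 16308393 to 16318205). It read 2.88 and 4.33 TPM in the intact pair and 1.56 and 1.60 TPM in the null pair. On the log2(TPM + 1) scale, which understates changes of low genes, the fold change was -0.82 with an interval from -1.36 to -0.28 (limma, adjusted p = 0.107). Without Hif1a-intact replicate 1, where the spread came from the Hif1a-null pair alone, the log2 fold change was -1.05. Over its 15 alternatives the adjusted p of Bbc3 ran up to 0.625, without Hif1a-null replicate 2.

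Bcl2l11, which encodes Bim, the death signal after cytokine withdrawal, had the smallest standard error of the 9 tested members, at 0.12 on the log2(TPM + 1) scale. It read 23.4 and 23.9 TPM in the intact pair and 16.1 and 15.9 TPM in the null pair (ENSMUSG00000027381, chromosome 2, 128126038 to 128162547, plus strand). Its log2 fold change was -0.54, with an interval from -0.87 to -0.20 (limma, adjusted p = 0.0934). It did not pass under any of its 15 alternatives, where the adjusted p ran from 0.0613 to 0.749.

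Summed by role, the BH3-only transcripts were lower in both Hif1a-null libraries than in either of the others. They totalled 145.4 and 147.7 TPM in the intact pair and 78.2 and 90.4 TPM in the null pair, of which Bid made up 71.7% to 75.8%. Without Bid the other 3 summed to 37.3 and 36.2 against 22.1 and 21.9 TPM. The effectors summed to 63.1 and 60.7 against 58.6 and 42.4 TPM. The ratio of BH3-only to pro-survival TPM was 0.84 and 0.763 in the intact pair and 0.477 and 0.544 in the Hif1a-null libraries. These sums were formed with the members' values known and carry no test.

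**Figure D2:**
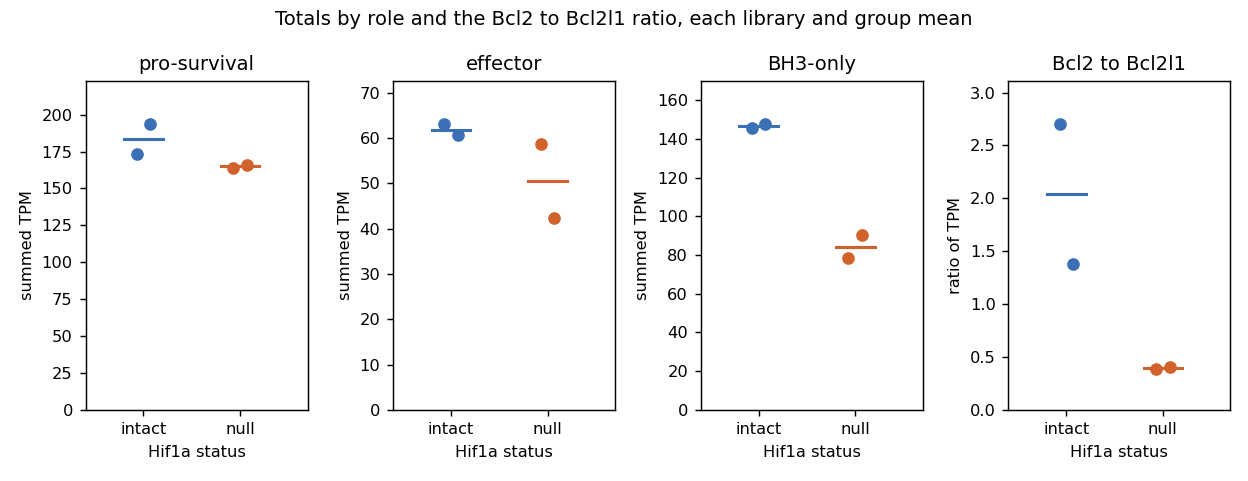
Summed TPM of the pro-survival, effector and BH3-only members, and the ratio of Bcl2 to Bcl2l1 TPM, with 1 point per library and a bar at the group mean, all axes from 0. The BH3-only totals are 145.4 and 147.7 TPM in the intact pair and 78.2 and 90.4 TPM in the null pair.

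The RNA of the Hif1a-null libraries also held more transcript of most tested markers of the erythroid, megakaryocyte, late granulocyte, B, and T and NK lists. Erythroid markers, led by Hbb-bs and Hba-a2, summed to 120.1 to 179.1 TPM in the intact pair and 6901 to 7324 TPM in the null pair, with 9 of 10 called higher. B-lineage markers, led by Dntt and Blnk, summed to 18.2 to 21.8 against 236.3 to 240.1 TPM, with 9 of 10 tested called higher and Igll1 and Rag1 at 0 in both Hif1a-intact libraries. Megakaryocyte markers summed to 24.6 to 26.6 against 107.4 to 128.3 TPM (5 of 6 called higher), and late granulocyte markers to 22750 to 26000 against 34430 to 35650 TPM (8 of 10 called higher). Mast cell and basophil markers summed to 302.6 to 547.3 against 57.4 to 60.2 TPM, with 1 of 3 tested called lower and Fcer1a at 0 in 3 libraries. That call was Cpa3, and without it the sums overlapped, at 13.2 to 20.8 against 14.9 to 17.9 TPM. Stem and progenitor markers, led by Cd34 and Kit, summed to 407.1 to 422.4 against 355.4 to 361.7 TPM (1 of 6 called higher). Without Cd34 these sums overlapped, at 156.1 to 178 against 155.7 to 176.7 TPM. Early granulocyte markers summed to 6171 to 6918 against 6329 to 6411 TPM (0 of 4 called). Monocyte and macrophage markers summed to 176.8 to 195.7 against 210 to 210.4 TPM (1 of 5 tested called higher and 2 lower). Without Ly6c2, the most abundant of them, the sums overlapped, at 72.0 to 99.1 against 91.3 to 92.9 TPM. T and NK markers summed to 184.1 to 289.8 against 182.3 to 209.2 TPM, mostly from Nkg7, which was not called. The other T and NK markers summed to 5.54 to 7.22 against 60.6 to 65.4 TPM (5 of 6 tested called higher, Gzma at 0 in both Hif1a-intact libraries). Eosinophil markers summed to 30.1 to 34.1 against 83.2 to 83.8 TPM (1 of 2 called higher). The part of these marker differences in the values of Bcl2, Bcl2l1 and the BH3-only genes was not tested.

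The rest of the family showed 1 further call. Of 16 other family genes 14 had a row and 8 were tested, with 1 called lower, 0 called higher and a median log2 fold change of -0.35. Over all tested genes 2.02% were called lower and 5.25% higher, with a median of -0.06. Bcl2l14, an atypical family gene (ENSMUSG00000030200, chromosome 6), read 4.19 and 3.60 TPM in the intact pair and 1.04 and 1.55 TPM in the null pair. It fell by 1.1 on the log2(TPM + 1) scale (limma, adjusted p = 0.0425), and the call held in 5 of 14 alternatives and was lost in the other 9, including with a variance trend (adjusted p = 0.0545) and with any library left out (adjusted p from 0.0745 to 0.412). The BH3-only gene Bmf read 6.76 and 6.57 against 3.95 and 4.39 TPM (limma, adjusted p = 0.0931), and Bad, whose product is kept inactive by growth factor signalling, 11.9 and 8.59 against 5.38 and 7.07 TPM (limma, adjusted p = 0.203). With these, 6 of 6 tested BH3-only genes lay lower in the Hif1a-null libraries without overlap, beside 32.3% of all tested genes. limma called 0 of them, and 6 of 6 had an unadjusted p under 0.05, beside 11.9% of all tested genes lower. Hrk and Bik were under the filter in every library.

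Bnip3, a mitophagy gene and known HIF-1 target with a BH3-like stretch, read 22.0 and 25.3 against 16.7 and 17.5 TPM (limma, adjusted p = 0.17). Its relative Bnip3l read 111.6 and 95.7 against 102.6 and 100.4 TPM; it was picked out with its values in view. Bcl2l13 read 9.45 and 9.78 against 12.1 and 12.9 TPM (limma, adjusted p = 0.209). Bcl2l10 and Bcl2a1c were listed at 0 in all libraries.

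**Figure D3:**
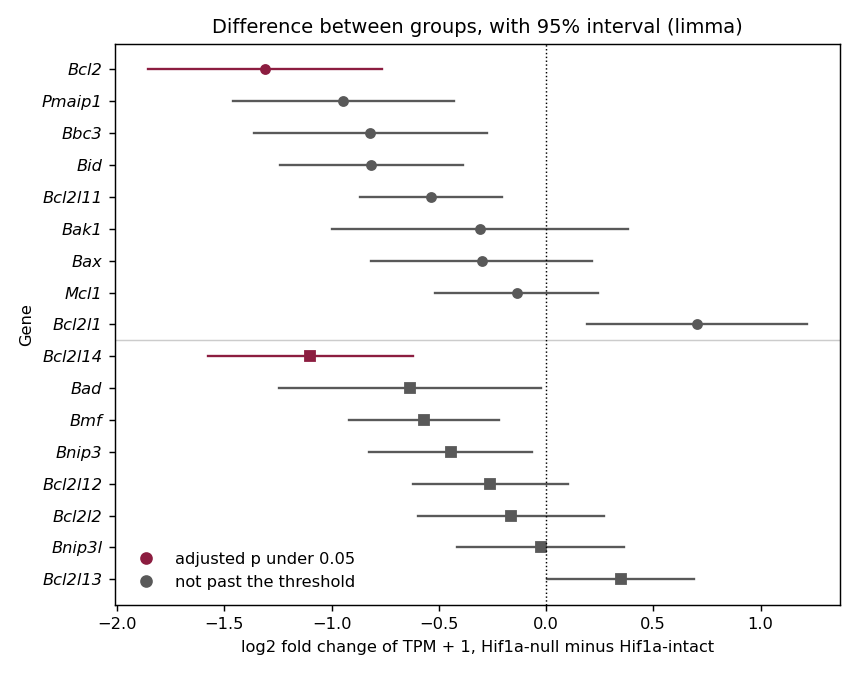
Log2 fold change of TPM + 1 (Hif1a-null minus Hif1a-intact) with its 95% interval from limma, for the 9 tested members (circles, top) and 8 other family genes (squares, bottom). Bcl2 at -1.31 and Bcl2l14 at -1.1 passed the threshold, and Bcl2l1 at 0.70 is the tested member above 0.

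Among mitochondrial apoptosis genes limma called 0 of the 15 reported here, which are not the whole list, beside 7.27% of all tested genes. At an unadjusted p under 0.05, 1 was higher and 0 lower, beside 11.4% and 11.9% of all tested genes. Their median log2 fold change was 0.05. For some of these genes near-identical copies held most of the joint TPM, and the gene's own row as little as 1.07%. The lack of a call says little about such a gene. Htra2, a mitochondrial protease released with cytochrome c, read 93.6 and 106.3 against 138.8 and 139 TPM (limma, adjusted p = 0.146) and shares a near-identical stretch with Aup1, at 48.5 to 51.1 TPM. Birc3, an inhibitor of apoptosis gene, read 61.4 and 56.0 against 65.7 and 74.6 TPM, and the nuclease gene Dffb 10.8 and 11.5 against 9.77 and 9.61 TPM (limma, adjusted p = 0.389 and 0.454). Diablo, whose product leaves the mitochondria and blocks the inhibitors of apoptosis, read 22.3 and 12.6 against 20.1 and 20.4 TPM (limma, adjusted p = 0.677). Its null pair lay between the 2 Hif1a-intact libraries, and its log2 fold change of 0.25 was -0.14 without Hif1a-intact replicate 2.

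On the death receptor arm limma called 0 of 8 tested genes, beside 7.27% of all tested genes called either way. At an unadjusted p under 0.05, 2 were lower and 1 higher, beside 11.9% and 11.4% of all tested genes. Without Hif1a-intact replicate 1 the log2 fold change of Tnfrsf1a was -1.47, beside -0.956 with all libraries. The receptor-associated kinase gene Ripk1 read 74.1 and 66.9 against 46.4 and 46.5 TPM and the adaptor gene Tradd 36.4 and 40.4 against 23.8 and 25.9 TPM (limma, adjusted p = 0.09 and 0.0932). The TRAIL receptor gene Tnfrsf10b read 2.25 and 2.15 against 3.18 and 3.41 TPM (limma, adjusted p = 0.152). Tnfrsf1a, the TNF receptor gene, read 62.3 and 128 against 48.1 and 43.2 TPM (limma, adjusted p = 0.238). Fas and Fasl were under the filter, and Fasl stood at 0 throughout the intact pair.

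Among 13 regulators of the family 1 was lower and 2 were higher at an unadjusted p under 0.05, beside 11.9% and 11.4% of all tested genes. Their median log2 fold change was 0.0042, and limma called 0 of them, beside 7.27% of all tested genes either way. Without Hif1a-intact replicate 1 it called 1, Ddit3 (adjusted p = 0.0411), picked out with its values in view. Nfkb1, an NF-kappaB subunit gene, read 98.7 and 93.2 against 62.9 and 56.0 TPM (limma, adjusted p = 0.0702). Foxo3, a forkhead factor known to induce Bcl2l11, read 33.2 and 32.7 against 43.5 and 44.7 TPM (limma, adjusted p = 0.157). March5, a mitochondrial ubiquitin ligase gene, read 92.1 and 97.7 against 123.2 and 140.6 TPM (limma, adjusted p = 0.157). Stat5a, of the cytokine signal that induces Bcl2l1, read 33.9 and 25.5 against 19.8 and 21.3 TPM and shares near-identical stretches with Stat5b (limma, adjusted p = 0.222). Trp53, which encodes p53, the inducer of Bbc3 and Pmaip1, read 39.5 and 38.6 against 35.4 and 34.8 TPM (limma, adjusted p = 0.542) and was picked out with its values in view.

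**Figure D4:**
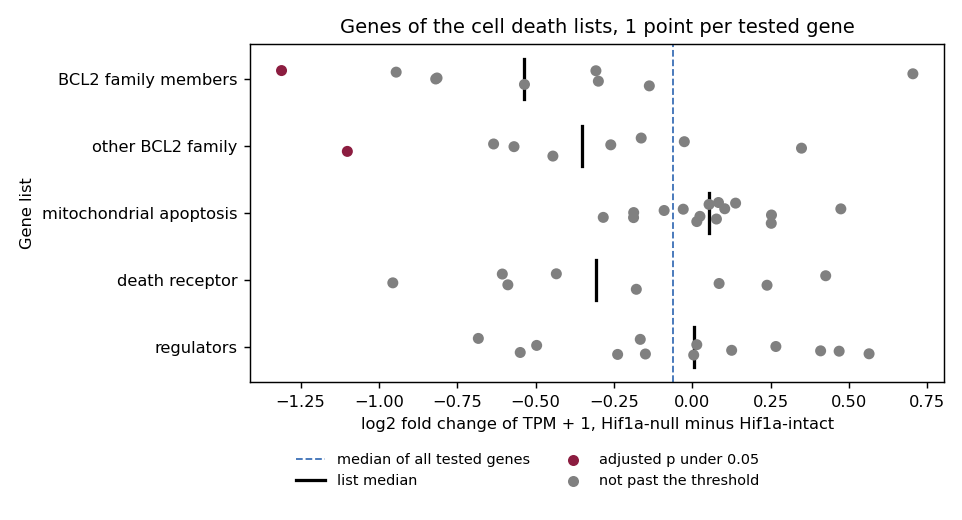
Log2 fold change of TPM + 1 (Hif1a-null minus Hif1a-intact) for each tested gene of 5 lists, with the list median as a black bar and the median of all tested genes as a dashed line. The members' median is -0.54 and that of the 15 mitochondrial apoptosis genes 0.05, with Bcl2 and Bcl2l14 past the threshold.

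Since the labels give Hif1a as the deleted gene, the members' promoters were searched for the core of the HIF binding motif. The letters ACGTG and GCGTG were searched on both strands in windows of 300 bases, 250 before to 50 after each RefSeq start (GRCm38.p6). A CACGTG contains ACGTG on both strands and counts as 2 matches. Of all 32851 promoter windows 43.8% held a match. Of 9 members with an entry 5 had a match at 1 start or more (Bcl2l11, Bcl2l1, Bbc3, Bax and Bcl2a1b) and 4 had none (Bcl2, Mcl1, Bid and Bak1), with 8 of their 14 windows matching. Genes with several listed starts had more chances to match. The windows of Bcl2, the called member, and of the first Bcl2l11 start are shown, with matches in capitals.
Bcl2 at chr1:106714241-106714540, minus strand: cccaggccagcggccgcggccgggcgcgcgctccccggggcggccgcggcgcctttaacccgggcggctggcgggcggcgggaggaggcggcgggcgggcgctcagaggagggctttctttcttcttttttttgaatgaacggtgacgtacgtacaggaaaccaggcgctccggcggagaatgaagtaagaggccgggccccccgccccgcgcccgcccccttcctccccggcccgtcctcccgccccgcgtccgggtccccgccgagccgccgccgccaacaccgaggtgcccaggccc
Bcl2l11 at chr2:128125788-128126087, plus strand: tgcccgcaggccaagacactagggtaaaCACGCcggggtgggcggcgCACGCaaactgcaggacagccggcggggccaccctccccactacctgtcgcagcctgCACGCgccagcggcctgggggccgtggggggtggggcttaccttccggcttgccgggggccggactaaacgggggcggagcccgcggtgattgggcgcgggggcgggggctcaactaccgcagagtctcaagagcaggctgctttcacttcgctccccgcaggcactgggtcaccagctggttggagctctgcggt
The Bcl2 window held 0 matches and the Bcl2l11 window 3, all GCGTG on the opposite strand. The window of the second listed Bcl2l11 start, not shown, held 0, and Bcl2l11 was not a called member. A match is a description of letters and not a binding site, and no match says only that these letters are not in this window.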

How the data were processed

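RNA was sequenced from 4 libraries, 2 per group. The submitters' processing notes name kallisto and mm10, with no version or transcript set, and strand handling is not stated. The authors deposited TPM, with 1 value for each Ensembl gene in a library, and the unit was read from the values, whose 4 columns sum to between 955562 and 963135. kallisto divides reads among similar transcripts by an estimate. TPM keeps no depth, so no counting intervals are given and count models were not run. Of 28987 identifiers 27458 were given a symbol, with coordinates from GENCODE vM21 (GRCm38, also called mm10).

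A gene was tested if 2 or more libraries reached 1 TPM, by limma 3.58.1 (R 4.3.3, moderated, two-sided) on log2(TPM + 1), Hif1a-null minus Hif1a-intact, with Benjamini-Hochberg adjustment over all tested genes and a threshold of 0.05. The script was tested on simulated data. Near-identical transcripts were searched with blastn 2.17.0 (at least 95% identity over 50% of the shorter transcript and 100 bases). Members and lists were chosen with earlier results of these data known. Named were all members, every called gene of the other lists, up to 4 further tested genes of smallest unadjusted p per list, Hif1a and Runx1, and up to 2 markers per list of highest mean TPM. Some further markers at 0 in 2 or more libraries were also named, after their values were seen. Motifs and promoters were searched in Python 3.11.15, and figures drawn with matplotlib 3.10.9. Alternatives were other variance models, rescalings, filters and pseudocounts, each library left out, and members summed with copies. Some genes of the mitochondrial apoptosis list are not reported here.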

Additional observations from a re-analysis of the deposited data

How the results depend on the processing

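No paired analysis was possible because the labels give the groups no shared replicate numbers. The count of called members, 1 with all libraries, was 2 after quantile normalization and 2 with protein-coding genes only, 0 with no filter, 0 with a pseudocount of 0.1 and 0 with a pseudocount of 5, and it ran from 0 to 2 with 1 library left out. The other family genes called, 1 with all libraries, were 0 with a variance trend, with no filter, with 1 TPM required in all libraries and with either other pseudocount, and 0 with any library left out. Of the 15 mitochondrial apoptosis genes reported, 0 were called under every alternative run. Death receptor genes and regulators, 0 each with all libraries, ran from 0 to 1 with 1 library left out. Over all tested genes 866 were called, 568 with no filter, 334 with 1 TPM required in all libraries and from 0 to 1019 with 1 library left out, with 19 called without Hif1a-null replicate 1 and 0 without Hif1a-null replicate 2.

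A lone library is assumed to vary like the other group, so that without a Hif1a-null library the spread came from the Hif1a-intact pair alone. Without a Hif1a-intact library the spread came from the Hif1a-null pair alone. The log2 fold change of Bak1 ran from -0.63 to 0.0142 with 1 library left out and changed sign without Hif1a-null replicate 2. That of Diablo ran from -0.136 to 0.64 and changed sign without Hif1a-intact replicate 2. Of 373 values of 26 named genes under an alternative, 352 kept their direction and their side of the threshold, 14 lost a call, 5 gained one and 2 changed sign. The cause of these changes was not tested. Summing members with copies changed no value, since the 1 copy with a row was listed at 0. Unknown depth limits the low genes most.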
